A study of Mus musculus with 4 samples.

Results

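The 46 genes described here encode proteins that drive a cell into mitosis, attach its chromosomes to the spindle, pull them apart and split the cell. They were chosen by the known role of their products, and all 46 were found among the 12907 genes named in transcript assemblies of C2C12 cells. C2C12 is a mouse skeletal myoblast line, labelled with the strain C57BL/6, whose cells stop dividing and fuse into myotubes once serum is withdrawn. Growing cells in medium with 20% fetal bovine serum were sampled in exponential growth (the -24 h library). The other cells were moved to low serum at confluence and sampled 60, 120 and 168 h after that change. All libraries come from this one line, with no other treatment, and there was 1 library of polyadenylated RNA at each time point. A difference is therefore one between 2 single libraries, and no p-value is given. In bulk RNA, fewer dividing cells and less RNA per dividing cell cannot be told apart.

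The libraries held 24488681 (120 h) to 48228887 (60 h) fragments. Levels are in FPKM, which counts fragments relative to transcript length and library size, and ± is the distance to the deposited confidence limit, which covers no variation between cultures. The labelled cell type was checked on marker genes. Myod1, the myoblast determination factor, stood at 193, 215, 134 and 86.1 FPKM in growth and at 60, 120 and 168 h. The 6 myoblast markers together summed to 812, 1947, 2615 and 2879 FPKM. Much of this came from the highest single marker of each library, at 452, 1303, 1904 and 2286 FPKM. Between growth and 168 h 1 of the 6 was lower and 2 were higher by the sum, with a median log2 ratio of 0.49. Acta1, skeletal muscle actin, stood at 18.4, 5150, 7931 and 7219 FPKM. The 8 myotube markers summed to 85.0 FPKM in growth and to 8568, 11871 and 10706 FPKM later. The 2 macrophage markers summed to 1.14 to 4.83 FPKM and the 3 endothelial markers to 1.20 to 11.6 FPKM. The endothelial Cdh5 was not assembled in growth or at 120 h. The 4 fibroblast markers summed to 13.8, 154, 188 and 226 FPKM, most of it Col1a1, and their part in the results below was not tested.

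Entry into mitosis depends on Cdk1 with cyclin B, released from inhibition by Cdc25 phosphatases and supported by Polo and Aurora kinases. Chromosomes are condensed by condensin and topoisomerase II, kinetochores built on Cenpa chromatin bind spindle microtubules, and the spindle assembly checkpoint holds back anaphase until each kinetochore is attached. The anaphase-promoting complex with Cdc20 then marks securin and cyclin B for destruction, separase opens cohesin, and the central spindle and contractile ring divide the cell. In cycling cells many of these genes are transcribed mainly in G2 and M phase. In differentiating muscle they are known to be shut off when myoblasts leave the cycle for good.

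At 60 h the level of 34 of the 46 genes had fallen from growth and 1 was higher, where 15.5% of 12556 genes fell and 11.1% were higher. Fallen or risen means a ratio of 2-fold or more between libraries after adding 1 FPKM to each level, a higher level of 1 FPKM or more, and separate confidence intervals. Adding 1 FPKM makes the changes of low genes look smaller than they are. From 60 to 120 h 12 genes fell (3.84% of all genes) and 2 rose (12.4% of all genes). From 120 to 168 h 27 fell (10.1% of all genes) and none rose (4.14% of all genes). Between growth and 168 h 44 fell (18.5% of all genes). The median log2 ratio of the 46 genes was -1.30, -0.68 and -1.17 at the 3 steps and -2.71 from growth to 168 h. The medians over all genes were -0.18, 0.15, -0.11 and -0.11. The counts at 168 h include Incenp, for which no transcript was listed in that library and which was set to 0. Without it they are 26 from 120 to 168 h and 43 between growth and 168 h. For these counts the FPKM of all assembled transcripts of a gene were summed. With the 60 h library in place of the 120 h library, 30 genes fell to 168 h (6.69% of all genes).

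The sum counts a gene more than once where its assembly is broken into pieces, and the mitosis genes were broken into more pieces later. They were assembled as 85 transcripts in growth and as 103, 132 and 154 at 60, 120 and 168 h. Of the 772 introns seen in any library, 747, 745, 498 and 380 were assembled. Every intron was assembled for 39, 36, 20 and 10 of the 46 genes. The fragments assigned to each gene thinned as well. Among the genes assembled in a library, none had under 100 fragments in growth or at 60 h, against 12 genes at 120 h and 20 at 168 h. Pttg1 in growth and Incenp at 168 h had no fragments and are left out of these counts. A second measure, through the introns, added up for each assembled intron the FPKM of the transcripts spanning it and took the median over the introns of the gene. The last measure, over the union of exons, divided a gene's fragments by the union of its exons over all libraries. That length is the same in each library, so a piece is not counted again, but exons left out of an assembly stay in the divisor and lower the value. Top2a at 120 h, with 9 of 36 introns assembled, stood at 5.16 FPKM by the sum and 1.35 over the union. The intron measure rests on the assembled introns alone.

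**Figure D1:**
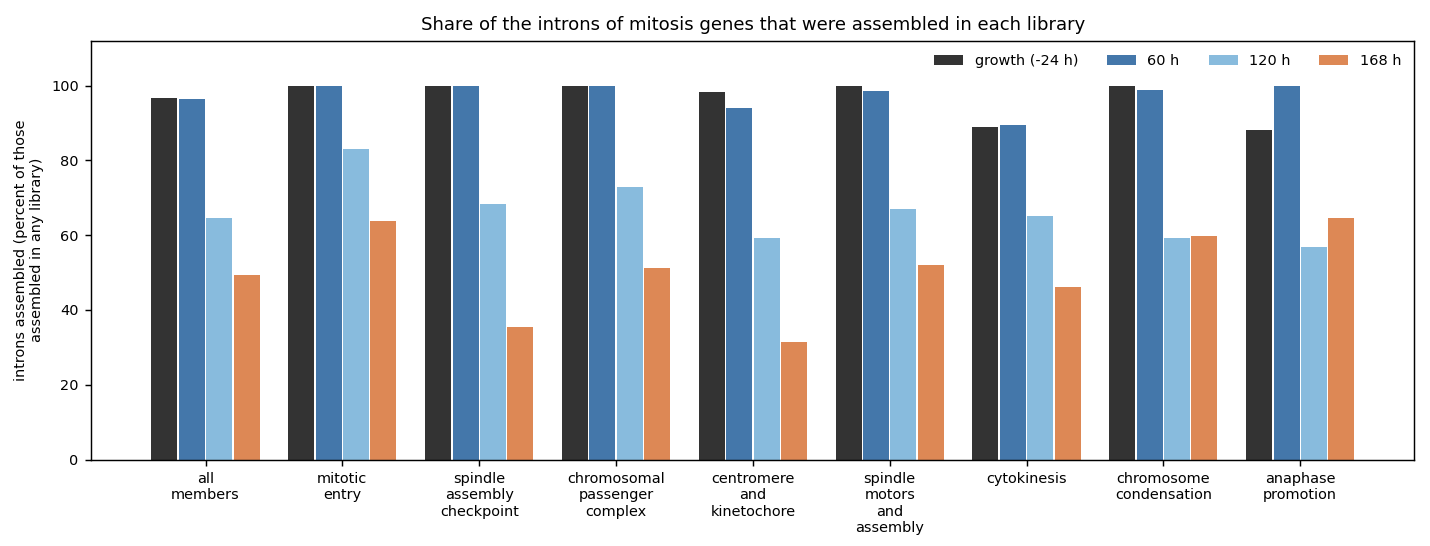
Percent of introns assembled (y axis, from 0) of those assembled in any library, for all 46 mitosis genes and for each complex (x axis), with 1 bar per library. Over all members the bars stand for 747, 745, 498 and 380 of 772 introns, and for the centromere and kinetochore genes the 168 h bar stands for 36 of 115.

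Through the introns 37 genes fell at 60 h (11.4% of all genes), 18 from 60 to 120 h (4.51%), 30 from 120 to 168 h (4.3%) and 45 between growth and 168 h (18.3%). Over the union of exons the counts were 36 (10.2% of all genes), 26 (4.49%), 28 (2.63%) and 45 (18.8%). By all 3 measures together 31, 10, 20 and 44 genes fell, and the share of all genes was not counted for the 3 together. At 168 h each of these counts includes Incenp. The counts over the union from 60 h on carry the loss of unassembled exons described above. None of the 46 rose from 60 to 120 h through the introns (4.17% of all genes) or over the union of exons (2.13%), and none rose from 120 to 168 h by either (4.42% and 3.5%). The level through the introns was lower at each successive time point for 44 of the 46 genes, all but Bub3 and Pttg1, with Incenp set to 0 at 168 h. Over the union of exons this held for 43 genes, all but Cdc25b, Smc4 and Pttg1, and by the sum for 29. Any decrease counts here, also one with overlapping intervals. Cdc25b, for example, stood at 39.3 ± 3.14 FPKM at 60 h and 38.96 ± 5.10 at 120 h through the introns. Among all genes assembled in growth the shares were 17.6% through the introns, 20.5% over the union and 11.7% by the sum. Among those with at least 4 FPKM in growth they were 21.9%, 26.5% and 14.3%.

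The median of the 45 genes assembled in growth stood at 38.6% of the growth level at 60 h, 27.5% at 120 h and 12.9% at 168 h by the sum. Through the introns it stood at 36.1%, 17.6% and 4.59%, and over the union of exons at 36.1%, 13.6% and 2.71%. The last of these is lowered by exons that were not assembled, since 380 of 772 introns were assembled at 168 h. The measures lie close together at 60 h and apart at 168 h, where the sum is the highest of them. As a share of all fragments of the library, the fragments of the 46 genes together stood at 38.5%, 18.5% and 6.19% of their share in growth at the 3 later times. Of the fragments left at 168 h, 28.4% came from Bub3 and 20.0% from Cdc25b, against 4.77% and 3.38% in growth.

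**Figure D2:**
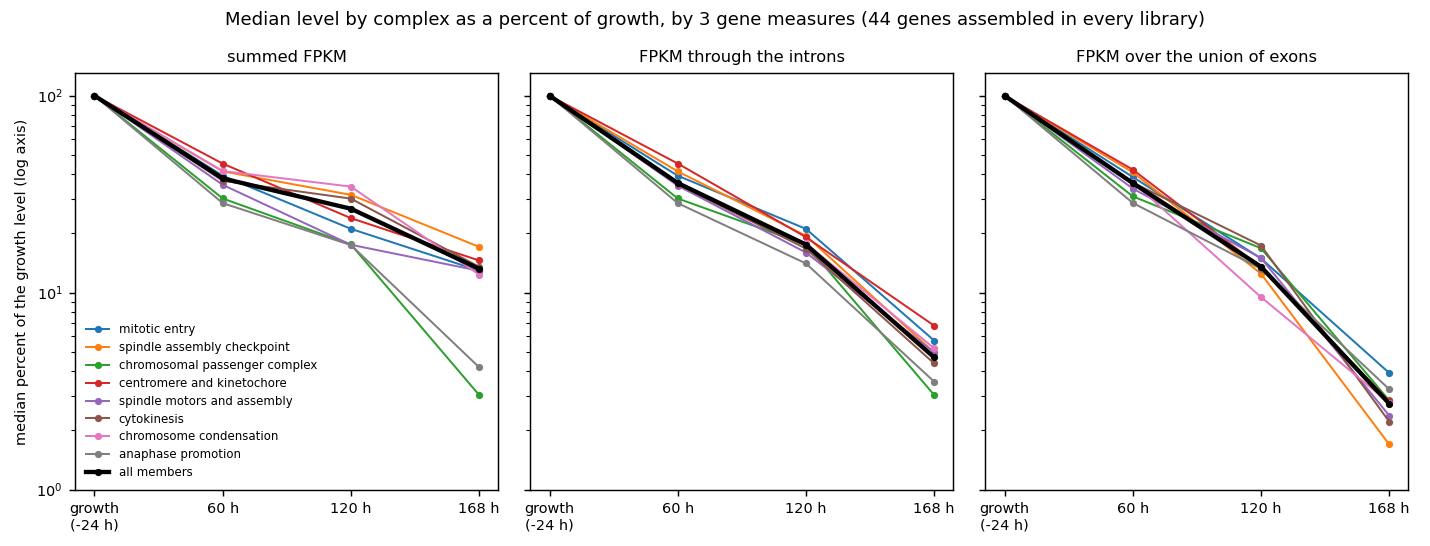
Median percent of the growth level (y axis, log scale) in each library (x axis, categories) for each complex and for all members, by 3 gene measures in 3 panels, over the 44 genes assembled in every library. The black line of all members ends at 13.2%, 4.69% and 2.73% in the panels of the sum, the introns and the exon union, and the chromosomal passenger complex, without Incenp, ends at 3.03%, 3.03% and 2.84%.

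Among the genes of mitotic entry 2 of 4 fell at 60 h and all 4 fell by 168 h, by the sum and through the introns alike. Plk1, the Polo kinase that acts at entry, on kinetochores and in cytokinesis (chr7:129302909-129313391 on the plus strand, in the coordinates of the deposited files, for which no source used here names a build), stood at 91.4 ± 2.39 FPKM in growth. It stood at 28.95 ± 1.05 at 60 h, 12.8 ± 0.982 at 120 h and 3.42 ± 0.697 at 168 h. It was highest in growth and fell at each of the 3 steps. Foxm1, a transcription factor of G2 and M phase genes, stood at 47.7 ± 1.22, 13.7 ± 0.508, 6.51 ± 0.499 and 1.51 ± 0.210 FPKM. By the sum it fell to 3.17% of its growth level at 168 h, beside 3.74% for Plk1. The other measures gave the opposite order, with 3.17% for Foxm1 and 1.58% for Plk1 through the introns. Over the union of exons the values were 2.21% and 1.08%. At 168 h 1 of 7 introns of Foxm1 and 4 of 9 of Plk1 were assembled. Cdc25c, a phosphatase that activates Cdk1, stood at 12.7 ± 2.41, 5.97 ± 1.01, 3.59 ± 0.722 and 2.82 ± 0.994 FPKM and did not reach 2-fold on the log2 scale at any single step by the sum. Of its annotated exon bases, 12.7% are shared with Gm3550 on the opposite strand, and the protocols describe no marking of strand.

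Cdc25b, a phosphatase of early mitotic entry, stood at 58.3 ± 4.27, 42.1 ± 3.39, 39.0 ± 5.10 and 22.6 ± 1.09 FPKM. The 60 h and 120 h intervals overlap, and the 168 h interval lies below both. It did not pass the rule at any single step by any of the 3 measures, but fell between growth and 168 h, to 38.7% ± 3.40. All 16 of its introns were assembled in each library. In growth it was below Plk1, and at 60 h, 120 h and 168 h it was above Plk1 with intervals apart.

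All 5 genes of the spindle assembly checkpoint fell at 60 h and between growth and 168 h by the sum and through the introns. Bub1b, the checkpoint protein BubR1, stood at 47.0 ± 1.35, 19.4 ± 0.672, 9.13 ± 0.649 and 3.17 ± 0.570 FPKM and fell at each step. Mad2l1, the Mad2 protein that binds Cdc20, stood at 32.6 ± 2.55, 9.35 ± 1.05, 10.2 ± 2.27 and 5.27 ± 1.72 FPKM by the sum. Its values through the introns were 32.6, 9.35, 5.79 and 1.83 FPKM, so its 60 h and 120 h sums overlap while the measure that allows for breaks goes down. Bub1, the kinase that recruits checkpoint proteins to kinetochores, was low throughout, at 7.82 ± 1.501, 3.34 ± 0.804, 2.39 ± 1.39 and 1.34 ± 1.13 FPKM, and its last value rests on 8 fragments.

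Bub3, the WD-repeat partner of Bub1 and BubR1, stood apart from the other checkpoint genes. It stood at 116 ± 2.75 FPKM in growth, 57.2 ± 1.48 at 60 h, 82.6 ± 3.37 at 120 h and 44.7 ± 1.41 at 168 h. It was higher at 120 h than at 60 h by the sum, with intervals that do not overlap but a ratio under 2-fold. The same order held through the introns (57.2 and 73.8 FPKM), and the opposite order held over the union of exons (54.9 and 47.0 FPKM). The first fall missed the 2-fold limit narrowly by that last measure. At 168 h it kept 38.6% ± 1.53 of its growth level, where the other 4 checkpoint genes kept 2.71% to 5.63% through the introns. At 120 h and 168 h Bub3 had the highest level of the 46 genes over the union of exons.

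Ttk, the Mps1 kinase that starts checkpoint signalling, stood at 6.65 ± 0.570, 2.16 ± 0.252, 6.81 ± 2.11 and 2.06 ± 1.29 FPKM by the sum. That sum rose from 60 to 120 h, at which time the gene was assembled as 5 transcripts instead of 1, with 13 of 21 introns. Through the introns its values were 6.65, 2.16, 1.53 and 0.331 FPKM, and over the union of exons 6.58, 2.09, 0.790 and 0.102. The rise is thus present in the sum alone.

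The chromosomal passenger complex joins Aurora B kinase to Incenp, survivin (Birc5) and borealin (Cdca8), and corrects faulty attachments before moving to the midzone. All 4 genes fell at 60 h. The 3 genes assembled at 168 h fell again from 120 to 168 h and between growth and 168 h. Birc5 had the third highest sum of the 46 genes in growth. It stood at 163 ± 5.31, 40.6 ± 2.36, 20.05 ± 2.34 and 2.04 ± 0.389 FPKM, which is 1.25% ± 0.242 of growth at 168 h. Cdca8 stood at 78.1 ± 2.60, 30.5 ± 1.26, 13.8 ± 1.21 and 2.90 ± 0.409 FPKM, with 1 transcript and all 9 introns in each library, and fell at each step. Aurkb, the kinase itself, stood at 52.8 ± 2.51, 15.9 ± 1.02, 9.27 ± 1.21 and 1.60 ± 0.286 FPKM. These 3 genes went down in parallel, to 24.9% to 39.0% of growth at 60 h, 12.3% to 17.7% at 120 h and 1.25% to 3.71% at 168 h. Over these 3 genes the median log2 ratio by the sum was -1.67 at the first step, -0.98 at the second and -1.98 at the last.

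Incenp, the scaffold of the complex (chr19:9946711-9973969, minus strand, in the files' coordinates), stood at 47.6 ± 1.44 FPKM in growth and 18.4 ± 0.686 at 60 h, each as 1 transcript with all 17 introns. At 120 h its sum was 63.4 ± 5.55 FPKM over 5 transcripts that held 7 introns, a rise from 60 h by the sum alone. Its introns gave 14.3 ± 2.21 FPKM at 120 h, and its exon union 8.99 FPKM. At 168 h no transcript on either strand was listed anywhere within those coordinates. No fold is given for that library.

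The 8 centromere and kinetochore genes comprised the centromeric histone Cenpa, the kinetochore motor Cenpe, Cenpf, the Cenpa reader Cenpn and the 4 subunits of the Ndc80 complex that grips microtubules. By the sum 6 of 8 fell at 60 h and 8 of 8 between growth and 168 h. Through the introns 4 fell at 60 h, since Cenpe and Cenpf missed the rule there. Cenpa stood at 100.3 ± 5.41, 34.6 ± 2.81, 19.5 ± 3.56 and 6.59 ± 1.35 FPKM. It had the highest level of the group in each library. Cenpn stood at 18.3 ± 1.21, 6.63 ± 0.558, 2.75 ± 0.522 and 3.14 ± 0.980 FPKM by the sum, with overlapping intervals at 120 h and 168 h, and at 0.842 ± 0.450 FPKM through the introns at 168 h.

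The subunits of the Ndc80 complex differed in level and in the size of the first step. Spc24 stood at 36.6 ± 2.01, 17.3 ± 1.51, 9.19 ± 2.14 and 4.23 ± 0.877 FPKM, and Nuf2 at 25.6 ± 2.94, 11.5 ± 1.52, 3.22 ± 0.957 and 3.82 ± 1.30. Both fell at 60 h. Spc25 stood at 17.9 ± 1.36, 8.84 ± 1.56, 4.07 ± 0.996 and 1.30 ± 0.472 FPKM, and Ndc80 at 7.65 ± 0.712, 4.59 ± 0.424, 2.12 ± 0.912 and 1.14 ± 1.01. These 2 did not pass the rule at 60 h by the sum, with 49.3% ± 9.46 and 60.1% ± 7.87 of growth left, and fell between growth and 168 h. Through the introns the 4 subunits stood at 2.38% (Nuf2), 4.79% (Spc25), 7.44% (Ndc80) and 9.79% (Spc24) of growth at 168 h. The last value of Ndc80 rests on 6 fragments.

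Cenpe and Cenpf encode very large proteins and were assembled in pieces in each library. Cenpe stood at 16.4 ± 2.21, 6.46 ± 1.02, 7.32 ± 2.59 and 2.34 ± 0.920 FPKM by the sum, over 5, 4, 9 and 6 transcripts. Its values through the introns were 4.61, 2.13, 0.888 and 0.512 FPKM. Cenpf stood at 12.2 ± 1.35, 5.56 ± 0.928, 7.60 ± 2.09 and 2.93 ± 1.27 FPKM by the sum, and at 4.08, 1.86, 1.42 and 0.749 through the introns. Both sums were higher at 120 h than at 60 h, with overlapping intervals, while both intron values went down.

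**Figure D3:**
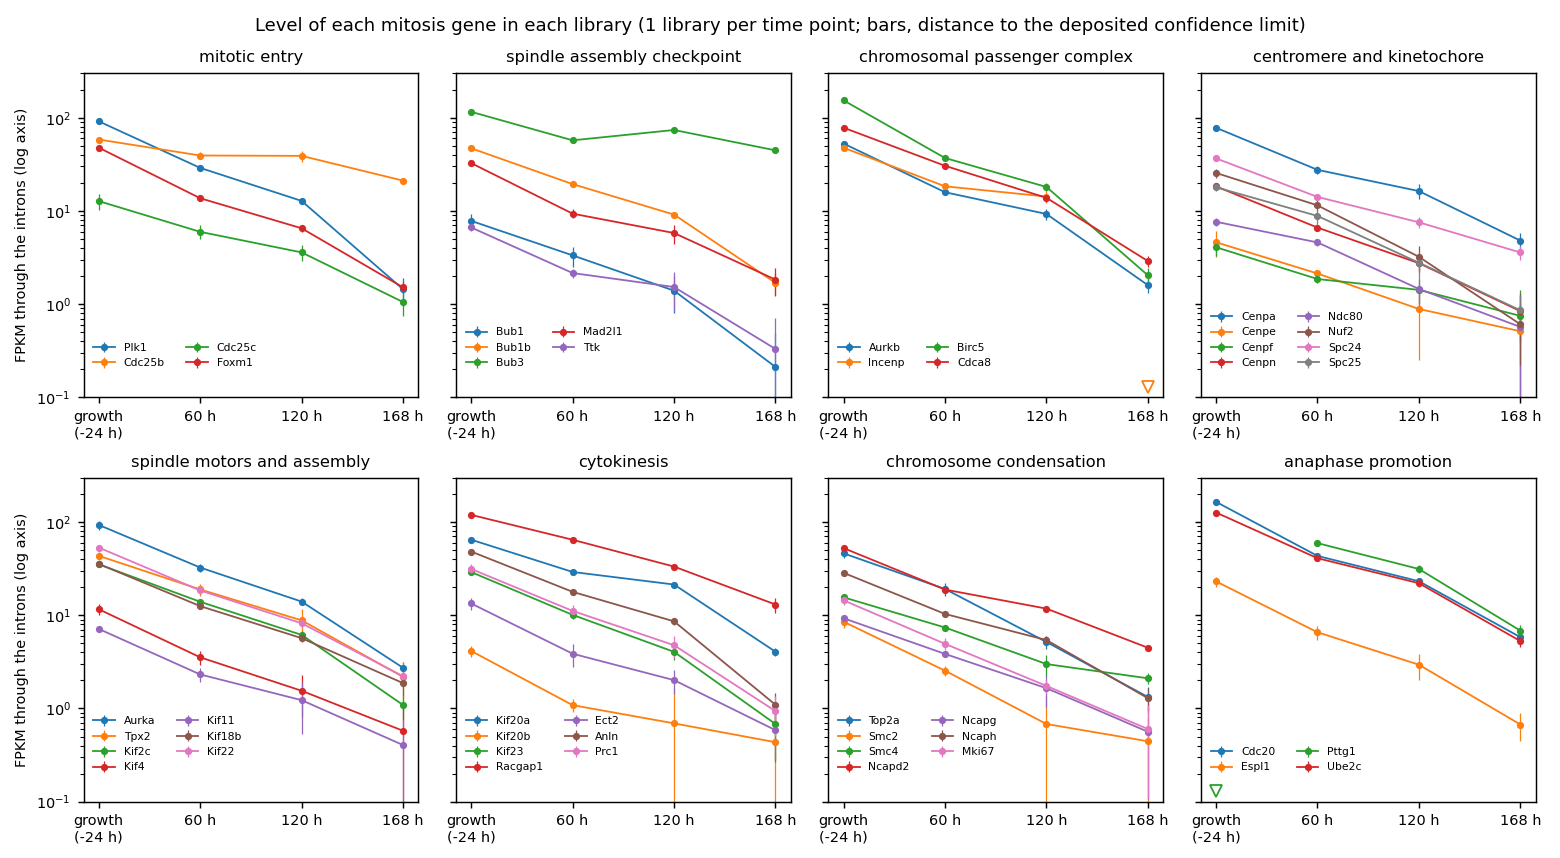
FPKM through the introns (y axis, log scale) of each of the 46 genes in each library (x axis, categories), with 1 panel per group. Bars give the distance to the confidence limit, bars that reach 0 end at the axis, and open triangles mark Pttg1 in growth and Incenp at 168 h, which were not assembled. Most lines run down in parallel, whereas Cdc25b and Bub3 keep 36.2% and 38.6% of growth at 168 h.

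Of the 7 genes of spindle motors and assembly 5 fell at 60 h by the sum and 7 through the introns, and all 7 fell between growth and 168 h. Aurka, the kinase of spindle poles, stood at 93.0 ± 10.5, 32.5 ± 3.04, 14.0 ± 1.13 and 2.73 ± 0.421 FPKM. Kif22, the chromokinesin Kid, stood at 53.2 ± 1.88, 18.4 ± 0.852, 8.19 ± 0.808 and 2.22 ± 0.319 FPKM, always as 1 transcript with all 13 introns. Tpx2, which activates Aurora A and nucleates microtubules, stood at 43.4 ± 4.45, 18.9 ± 2.82, 8.81 ± 2.86 and 3.001 ± 1.03 FPKM. These 3 genes fell at each of the 3 steps. Aurka ended at 2.93% ± 0.561 of growth, the lowest of the group, next to 3.03% ± 0.560 for Aurkb, and those intervals overlap.

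The motors Kif2c, which depolymerizes microtubules at kinetochores, and Kif11, the Eg5 motor that separates the poles, missed the rule at 60 h by the sum. Kif2c stood at 35.1 ± 1.32, 20.7 ± 1.13, 6.15 ± 0.607 and 4.54 ± 0.967 FPKM by the sum. At 60 h its 2 transcripts overlapped, and the value through the introns was 13.9 ± 0.761 FPKM, a fall. Kif11 stood at 14.7 ± 1.43, 7.01 ± 0.727, 8.90 ± 2.12 and 3.25 ± 1.52 FPKM by the sum, and at 7.13, 2.32, 1.23 and 0.405 FPKM through the introns. It had the highest percent of growth of this group at 168 h by both measures, 22.1% ± 10.5 and 5.68%, with a wide interval. Kif18b, a plus-end motor, and Kif4, a chromokinesin, stood at 6.09 ± 0.921 and 2.36 ± 1.15 FPKM at 168 h by the sum, and at 1.87 and 0.576 through the introns. Kif4 shares 15.1% of its annotated exon bases with Pdzd11 on the opposite strand, which stood at 60.2 to 30.3 FPKM.

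Of the 7 cytokinesis genes 5 fell at 60 h by the sum, 6 through the introns, and all 7 between growth and 168 h. Racgap1, the GTPase-activating subunit of centralspindlin, had the highest sum of the 46 genes in growth. It stood at 219 ± 8.05, 109.6 ± 4.28, 54.3 ± 2.51 and 18.8 ± 2.52 FPKM, and at 119, 64.5, 33.3 and 13.03 FPKM through the introns. It missed the 2-fold limit narrowly at 60 h, with 50.04% ± 2.68 of growth left, and fell at both later steps by the sum. Kif23, the motor of centralspindlin, stood at 29.04 ± 2.05, 10.1 ± 1.07, 8.72 ± 1.37 and 1.96 ± 0.767 FPKM. Through the introns the motor kept 2.34% and Racgap1 10.9% of growth at 168 h.

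Kif20a, a midzone motor, stood at 64.6 ± 1.51, 29.1 ± 0.818, 21.3 ± 1.09 and 8.74 ± 1.19 FPKM. It shares 29.3% of its annotated exon bases with Cdc23 on the opposite strand, which stood at 26.1, 16.6, 18.6 and 15.0 FPKM, and the part of that overlap in the later values was not tested. Anln, the anillin scaffold of the contractile ring, stood at 48.2 ± 1.51, 17.8 ± 0.708, 15.8 ± 1.39 and 1.095 ± 0.374 FPKM. It ended at 2.27% ± 0.779 of growth, the lowest of this group by the sum. Prc1, which bundles midzone microtubules, stood at 31.3 ± 3.67, 11.4 ± 1.74, 18.9 ± 2.66 and 9.09 ± 1.88 FPKM by the sum. The last sum runs over 8 transcripts, and through the introns Prc1 stood at 0.937 ± 0.431 FPKM, 2.99% of growth. Kif20b stood at 11.5 ± 1.45, 5.55 ± 1.60, 3.23 ± 1.69 and 2.04 ± 1.32 FPKM and missed the rule at 60 h by the sum. Ect2, the exchange factor that turns on RhoA at the equator, stood at 13.4 ± 1.90, 4.70 ± 1.17, 3.45 ± 0.815 and 2.91 ± 1.05 FPKM.

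Of the chromosome condensation genes, counts by the sum and through the introns differed. By the sum 4 of 7 genes fell at 60 h and 6 of 7 between growth and 168 h, and through the introns 6 and 7 did. Top2a, the topoisomerase that untangles sister chromatids, stood at 65.3 ± 5.91, 44.5 ± 3.65, 5.16 ± 0.774 and 5.46 ± 0.871 FPKM by the sum. Through the introns it stood at 46.1, 19.1, 5.16 and 1.33 FPKM, a fall at each step. The sum placed the main drop after 60 h, whereas the introns already showed 41.4% of growth at 60 h. At 120 h 1 transcript with 9 of 36 introns was assembled, and at 168 h 6 transcripts with 23.

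The condensin I subunits covered both extremes of assembly. Ncapd2 stood at 52.5 ± 1.34, 18.9 ± 0.580, 11.8 ± 0.652 and 4.48 ± 0.301 FPKM, as 1 transcript with all 31 introns in each library. It is the clearest record of the group, and it kept 35.9% ± 1.44, 22.4% ± 1.37 and 8.54% ± 0.613 of growth. Ncaph stood at 28.5 ± 1.23, 10.3 ± 0.567, 10.2 ± 1.45 and 4.36 ± 1.15 FPKM by the sum and at 5.41 and 1.29 FPKM through the introns at 120 h and 168 h. Ncapg stood at 9.28 ± 0.628, 3.84 ± 0.308, 7.33 ± 1.86 and 4.18 ± 1.46 FPKM by the sum, over 1, 1, 5 and 7 transcripts. It is the 1 gene assembled in growth that did not pass the rule between growth and 168 h by the sum, and it fell through the introns, from 9.28 to 0.563 FPKM.

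The paired ATPases of condensin, Smc2 and Smc4, missed the rule at 60 h by the sum. Smc2 stood at 17.04 ± 1.51, 11.02 ± 1.52, 5.89 ± 2.00 and 1.74 ± 0.931 FPKM, and at 8.52, 2.54, 0.681 and 0.445 FPKM through the introns, where it fell at 60 h. Smc4 stood at 15.6 ± 0.735, 7.38 ± 0.389, 11.4 ± 2.55 and 5.54 ± 1.08 FPKM, and at 15.6, 7.38, 2.99 and 2.11 through the introns. Smc4 kept 13.5% of growth at 168 h through the introns, the most of the group. Mki67, which encodes the Ki-67 antigen that coats mitotic chromosomes, stood at 34.4 ± 1.84, 11.3 ± 0.837, 9.46 ± 2.30 and 4.24 ± 1.22 FPKM. Through the introns it stood at 14.4, 4.93, 1.74 and 0.601 FPKM.

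Of the genes that promote anaphase, the 3 assembled in growth fell at 60 h and between growth and 168 h by the sum and through the introns. Cdc20, the activator of the anaphase-promoting complex, stood at 165 ± 3.51, 43.3 ± 2.89, 23.1 ± 1.47 and 5.82 ± 0.557 FPKM. Ube2c, the ubiquitin-conjugating enzyme of that complex, stood at 126 ± 4.35, 40.9 ± 1.90, 22.1 ± 2.00 and 5.29 ± 0.728 FPKM. The 2 genes kept 26.3% and 32.4% of growth at 60 h, 14.1% and 17.4% at 120 h and 3.54% and 4.18% at 168 h. Of the annotated exon bases of Ube2c 22.8% are shared with Tnnc2, fast troponin C, on the opposite strand, which stood at 12.3, 2151, 3624 and 3282 FPKM. The 5 introns of Ube2c were assembled as 1 transcript in each library, and the part of the overlap in its values was not tested. Espl1, the protease separase, stood at 23.1 ± 2.86, 6.57 ± 1.15, 9.57 ± 1.63 and 7.03 ± 2.22 FPKM by the sum. Through the introns it stood at 23.1, 6.57, 2.95 and 0.673 FPKM.

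Pttg1, which encodes securin, the inhibitor of separase (chr11:43233759-43239738, minus strand, in the files' coordinates), was the exception in growth. No transcript on either strand was listed within those coordinates in growth, and the gene stood at 59.4 ± 2.62 FPKM at 60 h, 31.3 ± 2.85 at 120 h and 6.84 ± 0.998 at 168 h. It met the rule as higher at 60 h and at 168 h than in growth, and fell from 120 to 168 h. None of its sampled 50-base words occurs in another annotated gene. With a list of assembled transcripts, a gene that was not assembled cannot be told from a gene that was not expressed, and no fold is given. From 60 h on its values go down beside those of Cdc20 and Ube2c, and at 60 h it was the highest of the 46 genes over the union of exons.

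**Figure D4:**
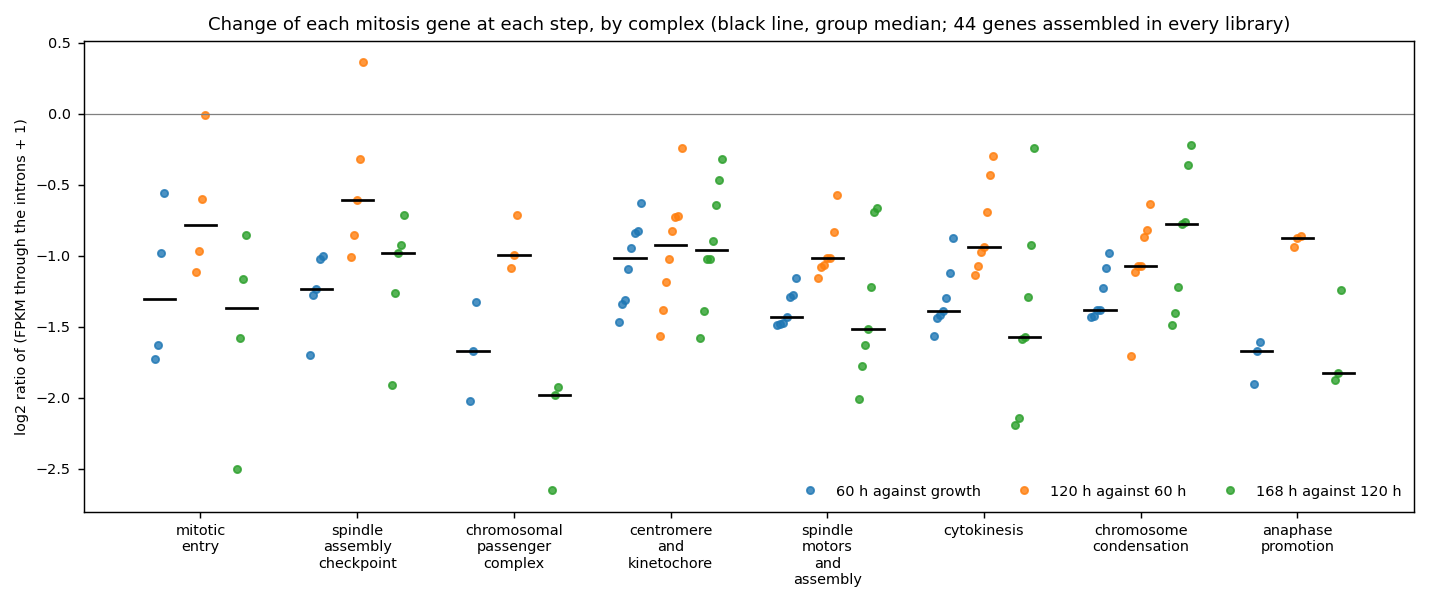
Log2 ratio of FPKM through the introns plus 1 (y axis) at each of the 3 steps (colours) for the 44 genes assembled in every library, by complex (x axis). Black lines are group medians. All points at the first step lie below 0, Bub3 alone lies above 0 at the second, and the median of the last step is lowest, at -1.98, for the 3 genes of the chromosomal passenger complex.

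The timing of the fall was compared between complexes through the introns, on the log2(FPKM + 1) scale, over the 44 genes assembled in every library. The first step made up a median of 38.6% of the whole log2 change from growth to 168 h, the second 24.6% and the last 37.04%. By complex, the median share of the first step ran from 34.5% in cytokinesis to 47.6% in the spindle assembly checkpoint, and stood at 35.7% in the chromosomal passenger complex. The last step ran from 28.0% in chromosome condensation to 45.4% in the chromosomal passenger complex. The added 1 FPKM shrinks the later steps of genes that end low, so the first step takes a larger share in them. For Ttk the last step was 4.62-fold without it, and its log2 ratio with it was -0.93. How much of the order of the complexes comes from this scale was not tested. Among single genes the share of the first step ran from 25.5% in Ndc80 to 74.1% in Bub3, and it was over 50% in 6 of 44 genes. By the sum this share was over 50% in 18 of 44, and over the union of exons in 3 of 44. The order of the complexes at 168 h also depended on the measure. The checkpoint genes kept the highest median by the sum (17.1%) and the lowest over the union of exons (1.70%). The 3 chromosomal passenger genes kept 3.03%, 3.03% and 2.84% by the sum, the introns and the union.

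Genes of the same pathways outside the 46 were counted in 8 lists. Their median log2 ratios at 60 h by the sum were -1.03 for other kinetochore genes, -0.95 for other spindle genes, -0.81 for the kinase switch and -0.67 for the DREAM list. They were -0.60 for centrosome genes, -0.59 for condensin II, -0.54 for cohesin and -0.37 for the anaphase-promoting complex, beside -0.18 over all genes. At 60 h 15.5% of all genes fell and 11.1% rose by the sum. Of other kinetochore and centromere genes 17 of 33 fell at 60 h and none rose. Trip13, the ATPase that disassembles checkpoint complexes, stood at 19.6 ± 1.11, 3.01 ± 0.336, 2.69 ± 0.725 and 2.66 ± 1.22 FPKM, and Cenps at 25.3 ± 2.07, 5.54 ± 0.958, 5.41 ± 1.15 and 2.67 ± 0.681. Cenpp had the largest increase of the list at 60 h, from 4.27 ± 0.548 to 6.34 ± 0.921 FPKM, and did not pass the rule. Of other spindle and cytokinesis genes 15 of 34 fell and none rose. Ercc6l, a helicase of anaphase bridges, stood at 6.24 ± 1.58 FPKM in growth and 1.05 ± 0.132 at 60 h. Clasp2, a microtubule plus-end protein, fell from 14.2 ± 1.01 to 3.13 ± 0.204 by the sum, but stood at 5.10 and 3.13 FPKM through the introns. Kif5b, a motor of vesicle transport, stood at 24.1 ± 4.53 FPKM in growth and 34.3 ± 0.857 at 60 h, short of 2-fold.

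In the list of the mitotic kinase switch 6 of 13 genes fell at 60 h (15.5% of all genes). Between growth and 168 h 10 of 13 fell (18.5% of all genes). Cdk1, the kinase of mitotic entry, stood at 188 ± 4.62, 38.7 ± 1.62, 19.98 ± 1.67 and 6.70 ± 0.729 FPKM. Ccnb1, cyclin B1, stood at 6.48 ± 1.36, 0.695 ± 0.181, 2.81 ± 1.96 and 0.249 ± 0.353 FPKM. Plk2 stood at 37.03 ± 1.37 FPKM in growth and 62.8 ± 1.35 at 60 h, with intervals apart but under 2-fold. Of cohesin and its regulators 4 of 15 fell at 60 h by the sum (15.5% of all genes) and 2 through the introns (11.4%). Those with the largest falls were Cdca5, the sororin that guards cohesion, from 25.2 ± 1.96 to 4.47 ± 0.669 FPKM, and Sgo1, shugoshin, from 15.3 ± 2.91 to 5.87 ± 1.37. Stag1, a core cohesin subunit, stood at 4.79 ± 0.706 and 6.62 ± 0.730 FPKM.

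The core of the anaphase-promoting complex, with which Cdc20 and Ube2c work, is also needed outside mitosis. Beside core subunits, the list counted here holds Fzr1, Ube2s, Fbxo5 and Ube2d1, which are not part of the core. Of 16 named genes 2 fell (15.5% of all genes) and 1 rose (11.1%) at 60 h by the sum. None fell (18.5% of all genes) or rose (15.5%) between growth and 168 h (median log2 ratio -0.03). Through the introns 3 fell (11.4% of all genes) and none rose (11.1%) at 60 h, and 1 fell between growth and 168 h (18.3%). Anapc11, its RING subunit, stood at 157 ± 4.40, 69.7 ± 2.68, 115 ± 6.48 and 131 ± 6.30 FPKM. Cdc26 stood at 11.4 ± 2.03 FPKM in growth, and no transcript of it was listed at 60 h. Cdc27 rose by the sum, from 10.3 ± 2.20 to 71.6 ± 5.21 FPKM at 60 h, with 7.32 and 9.29 FPKM through the introns. Of 28 centrosome and gamma-tubulin genes 8 fell (15.5% of all genes) and 3 rose (11.1%) at 60 h by the sum. Pcnt, pericentrin, stood at 15.1 ± 1.40, 4.43 ± 1.31, 8.36 ± 1.18 and 13.9 ± 1.43 FPKM, Haus8 at 21.8 ± 3.29 and 7.37 ± 1.01 in growth and at 60 h. Tubgcp5 rose by the sum, from 2.99 ± 0.670 to 12.3 ± 2.42 FPKM, but stood at 2.99 and 2.81 through the introns.

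Of the 3 condensin II genes 1 fell at 60 h by the sum (15.5% of all genes) and 2 through the introns (11.4%). Ncapg2 stood at 13.4 ± 1.57 FPKM in growth and 1.12 ± 0.239 at 60 h, Ncapd3 at 8.28 ± 0.486 and 5.16 ± 0.455, and Ncaph2 at 80.3 ± 5.22 and 81.9 ± 4.85. The DREAM list holds the DREAM complex, its MuvB core and E2F factors, which govern cell cycle promoters. Of its 18 named genes 5 fell (15.5% of all genes) and 1 rose (11.1%) at 60 h. Mybl2, the B-Myb partner of MuvB in cycling cells, stood at 46.5 ± 5.10, 4.32 ± 0.541, 2.81 ± 1.25 and 0.650 ± 0.582 FPKM. E2f7, a repressor, stood at 10.6 ± 0.522 and 2.19 ± 0.184 FPKM in growth and at 60 h. E2f2 rose, from 15.2 ± 2.22 to 38.9 ± 2.25 FPKM at 60 h, and stood at 12.2 ± 1.31 at 168 h.

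Promoters were examined because most of the 46 genes went down over the same time points. A pair of elements is known from G2 and M phase genes: the CCAAT box, bound by NF-Y, and the cell cycle genes homology region, TTTGAA or TTCGAA, bound by the MuvB core. RefSeq promoters (build GRCm38.p6, 250 bases before to 50 after the annotated start) were on hand for 38 of the 46 genes. On either strand, CCAAT was present in 29 of 38 (76.3%) and in 41.1% of all 27025 genes in the table. TTTGAA or TTCGAA was present in 32 of 38 (84.2%) and in 21.7% of all genes. Both were present in 28 of 38 (73.7%) and in 8.61% of all genes. An E2F element, TTTGGCGC or TTTCGCGC, was present in 1 of 38 (2.63%) and in 0.929% of all genes. TTCGAA reads the same on both strands, and CCAAT and TTTGAA can share letters where they adjoin. A gene was counted where any of its annotated starts had a match, and a match describes letters, not a bound site.

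The matches of TTTGAA or TTCGAA lay close to the start. In 29 of the 32 genes the nearest match was within 50 bases before to 50 after it, and the median position was 5 bases after it. In that narrower window, chosen after seeing the data, the share was 76.3% of the members and 6.12% of all genes. Where a CCAAT lay before the match, the first letters of the nearest one and of the match were a median of 34 bases apart. The genes with neither element were Mad2l1, Birc5, Nuf2, Ncaph and Pttg1, and the 4 of them assembled in growth fell by 168 h. Cdc25b and Bub3, which kept the most of their growth level at 168 h through the introns, hold both elements. By the sum 44 of the 46 genes fell between growth and 168 h, so a fall does not set the genes with neither element apart. A link between the elements and the fall or its size was not tested.

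**Figure D5:**
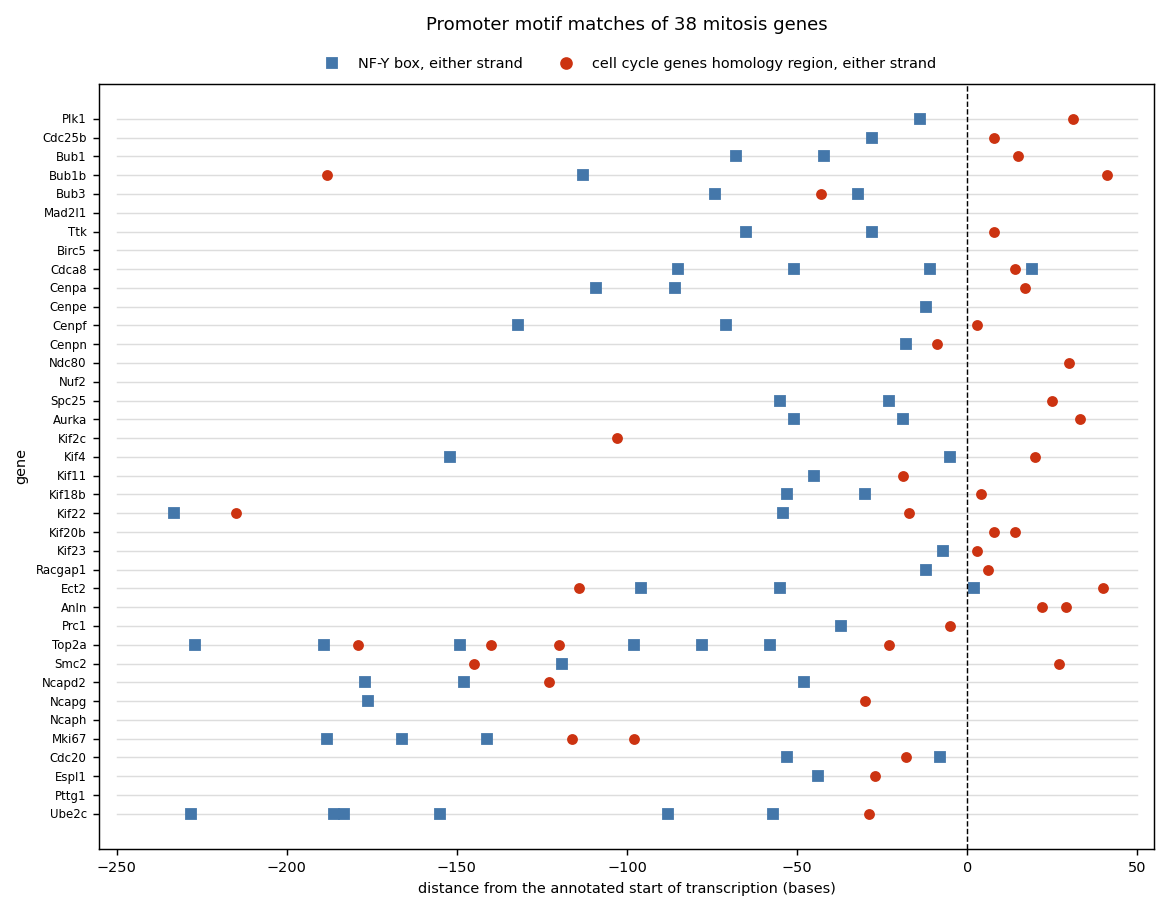
Distance from the annotated start of transcription (x axis, bases) of each match to the NF-Y box (blue squares) and to the cell cycle genes homology region (red circles) in the first listed promoter of 38 members (y axis). The dashed line is the start. Red circles gather near the line, with the nearest match of a gene at a median of 5 bases after it, and blue squares lie mostly to their left.

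The stretches around the TTTGAA or TTCGAA match are given for genes of several complexes, and for Cdc25b and Bub3, so that the shared letters can be compared between deep and shallow falls. Each is read 5′ to 3′ in the direction in which the match reads TTTGAA or TTCGAA, with 12 bases on each side and the match in capitals.
Plk1 (chr7:122159453-122159482, plus strand): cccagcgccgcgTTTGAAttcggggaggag
Bub1 (chr2:127831828-127831857, minus strand): ctgcgcggggaaTTCGAAtcgccggcggcc
Cenpa (chr5:30666890-30666919, plus strand): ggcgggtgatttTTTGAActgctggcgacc
Aurka (chr2:172370521-172370550, minus strand): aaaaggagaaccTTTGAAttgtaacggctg
Kif23 (chr9:61946780-61946809, minus strand): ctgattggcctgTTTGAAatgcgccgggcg
Racgap1 (chr15:99651634-99651663, minus strand): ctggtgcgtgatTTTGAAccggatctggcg
Espl1 (chr15:102296254-102296283, plus strand): tcactagggataTTTGAAaggaggtgctgg
Cdc25b (chr2:131186943-131186972, plus strand): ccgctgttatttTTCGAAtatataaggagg
Bub3 (chr7:131560315-131560344, minus strand): tcattggctgatTTTGAAcgccaacggctc
A pair of longer stretches, the 150 bases before the start of Cdc20 and Ube2c, show the order of both elements in genes with high growth levels, in the gene's own direction and with every match to CCAAT or to TTTGAA, on either strand, in capitals.
Cdc20 (chr4:118437344-118437493, minus strand): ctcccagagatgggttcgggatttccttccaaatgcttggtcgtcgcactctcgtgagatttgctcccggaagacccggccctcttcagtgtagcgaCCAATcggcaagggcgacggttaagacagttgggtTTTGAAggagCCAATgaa
Ube2c (chr2:164769779-164769928, plus strand): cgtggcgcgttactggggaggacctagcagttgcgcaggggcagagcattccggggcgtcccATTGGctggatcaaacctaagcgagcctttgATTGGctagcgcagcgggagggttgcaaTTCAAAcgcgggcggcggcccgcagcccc
In both, a CCAAT box or its reverse lies before the TTTGAA or TTCAAA match.

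The same letters were counted in the other pathway lists. TTTGAA or TTCGAA was present in 18 of 28 promoters (64.3%) of other spindle and cytokinesis genes and in 13 of 30 (43.3%) of other kinetochore and centromere genes. It was present in 4 of 17 (23.5%) of the anaphase-promoting complex and in 4 of 22 (18.2%) of the centrosome and gamma-tubulin list, near the 21.7% of all genes. In the other lists it was present in 2 of 10 (20.0%) of the mitotic kinase switch, of which 10 of 13 genes fell between growth and 168 h. It was present in 5 of 11 (45.5%) of cohesin and its regulators, 6 of 14 (42.9%) of the DREAM list and 3 of 3 of condensin II. The shares of the lists did not all follow the counts of genes that fell. These shares describe the lists, and no test was made of them.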

How the data were processed

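The authors deposited 1 table of assembled transcripts per library, with an RPKM value and confidence limits for each transcript (called FPKM here, since read pairs were counted). The deposited score column was not used. The submitters' processing notes list Cufflinks 0.8.0 and TopHat 1.0.13 without saying what each did. No source used here names the build, and the protocols per the labels describe no marking of strand.

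Transcripts were named by matching runs of exon and intron lengths to GENCODE M21, which named 92.9% of 137519 introns. Transcripts held 86.9% to 89.7% of each library's fragments. Distances to limits were added in quadrature within a gene, and a gene with no transcript was set to 0. The pseudocount was 1 FPKM. Percent of growth is a level divided by that in growth.

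The members, lists and motifs were chosen with earlier results of these data known. In each group the 3 genes highest in growth, the highest and lowest percent at 168 h, and each gene not lower at 60 h or higher at any step were described in every library, with some others beside them. Of each pathway list the 2 largest falls and the largest rise at 60 h among genes of at least 5 FPKM were named. The 6 named myoblast markers summed to 812 FPKM in growth and 2879 at 168 h, of which the highest marker held 452 and 2286. The 3 satellite or reserve cell markers summed to 11.7 and 28.1. Words of 50 bases of each gene were searched for in other annotated genes. Python 3.11.15 was used, and the scripts were tested on simulated data.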

Additional observations from a re-analysis of the deposited data

How the results depend on the processing

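Each time point is 1 library, so no alternative measures variation between cultures, and low values rest on few fragments. No paired analysis was possible because there is 1 library per time point. Of 1836 log2 ratios of single members recomputed, 1623 kept their call, 120 lost the call, 74 gained it and 19 reversed. The kept calls include 184 with no minimum level and 180 with genes assembled in both libraries. Those settings reuse the main ratios and could change no call. They also include 183 with a minimum of 5 FPKM, which reuses the main ratios too. Reversed means a change of sign with a call in either setting. A ratio with no call in both settings counted as kept, even where its sign changed. From 60 to 120 h Mad2l1 is such a case, with 0.12 by the sum and -0.61 through the introns. Where no cause is named, the cause was not tested.

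At 4-fold in place of 2-fold, 0 members were lower at 60 h than in growth, 1 from 60 to 120 h and 5 from 120 to 168 h. Between growth and 168 h 32 of the 46 were lower at 4-fold. The counts at 168 h include Incenp, set to 0 there. The share of all genes was not counted at 4-fold. In the pathway lists at 60 h that limit left 2 other kinetochore genes, 0 other spindle genes, 1 cohesin gene, 1 gene of the anaphase-promoting complex, 0 centrosome genes, 2 of the kinase switch and 1 of the DREAM list. From 60 to 120 h 26 members were lower by the exon union, 21 after scaling to equal totals and 19 with median-ratio rescaling. That rescaling moved the median log2 ratio of all genes at 60 h from -0.18 to 0.02 and from 60 to 120 h from 0.15 to -0.02. It moved the share of calls that were higher from 41.7% to 55.8% at 60 h, from 76.3% to 64.4% from 60 to 120 h (63.2% with equal totals) and from 29.2% to 39.7% from 120 to 168 h. At 60 h it left 1 lower gene of the anaphase-promoting complex and 2 of cohesin, and a median of 45.5% of growth for the members. Through the introns 2 cohesin and 2 condensin II genes were lower at 60 h, and over the union 2 condensin II genes. With multi-exon transcripts alone 3 genes of the DREAM list were lower, and with genes assembled in both libraries 1 gene of the anaphase-promoting complex.

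The members' median log2 ratio from 60 to 120 h was -0.92 by the introns and -1.05 by the exon union. Between growth and 168 h it was -3.62 and -3.87. With a pseudocount of 0.1 FPKM it was -1.36 from 120 to 168 h. The median percent of growth was 17.6% and 13.6% at 120 h and 4.59% and 2.71% at 168 h, through the introns and over the union. CCAAT was present in 52.6% of members and 15.6% of all genes within 50 bases of the start, a window added after seeing the data. TTTGAA or TTCGAA was present in 39.5% of members and 11.2% of all genes in the 150 bases before the start.

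The log2 ratios counted as reversed all came from the other gene measures. From 60 to 120 h through the introns they were -0.34 for Incenp, -0.32 for Ttk, -1.07 for Prc1 and -1.07 for Smc4. Over the union they were -0.93 for Incenp, -0.79 for Ttk, -1.23 for Cenpe, -1.86 for Espl1, -1.01 for Kif11, -1.57 for Kif4, -1.15 for Ncapg and -1.75 for Smc4. From 120 to 168 h through the introns they were -1.03 for Cenpn, -1.22 for Kif18b, -1.39 for Nuf2 and -1.41 for Top2a, and over the union -1.104 for Cenpn, -1.48 for Kif18b and -1.49 for Nuf2.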
